A study of Homo sapiens with 3 samples.

Results

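The genes described here encode enzymes that make, recycle, phosphorylate and break down purine and pyrimidine nucleotides, other than the NME family itself. A list of 38 genes was chosen by function, and each was followed through every probe set annotated to it alone. Such probe sets were found for 36 of the 38, 64 probe sets among the 22283 on the array. The exceptions were ADSS2, whose probe set is not named in the annotation used, and UCK2, whose probe set is shared with a microRNA gene. Transcript levels were measured in CAL 27, an established line of poorly differentiated tongue carcinoma cells grown in medium with serum. All 3 groups were stable transfectants. The vector group carried the empty pEGFPC1 plasmid and made GFP, the nm23-H1 group made a fusion of GFP with Nm23-H1, and the nm23-H2 group carried pEGFPC1-nm23-H2 and overexpressed Nm23-H2. The vector cells are described as a single clone, and the series' design text speaks of clones for nm23-H1 and does not mention nm23-H2. How many clones stand behind either nm23 array is not given in the sources used here.

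Cells build purine nucleotides step by step on phosphoribosyl pyrophosphate until the ring of inosine monophosphate (IMP) is closed, and IMP is then turned into AMP or GMP. The pyrimidine ring is made first and joined to the same sugar phosphate afterwards, giving UMP and then the cytidine and thymidine nucleotides. Salvage enzymes recover bases and nucleosides, and ribonucleotide reductase supplies the deoxynucleotides of DNA. Nm23-H1 and Nm23-H2 are nucleoside diphosphate kinases, which add the last phosphate to the diphosphates that these pathways produce. The study's title asks for downstream targets of Nm23-H1, and the comparisons below ask whether the transcripts of the enzymes around that step differed between the transfectants.

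Each group was 1 array, with no replicates, so the spread between cultures is unknown and no difference could be tested. Construct, clone and array cannot be told apart, and in RNA from a whole culture fewer cells with a transcript cannot be told apart from less of it per cell. Signals are linear units after the arrays were scaled to each other by factors between 0.881 and 1.11. A signal below the floor of 28.3 units, the median of all signals, was set to the floor, and a gene was counted as measured if any of the 3 arrays exceeded the floor. Differences are on the log2 scale, where 1 is 2-fold. The only error available was how far probe sets of 1 gene differed in their log2 difference. The gap was taken between the brightest 2 probe sets of a gene, where both were above the floor on both arrays. Its SD was divided by the square root of 2 to stand for 1 probe set. This probe set SD was 0.33 when nm23-H1 was set against vector, 0.36 when nm23-H2 was, and 0.39 between the nm23 arrays. The NME1 probe set gave 1519 units on the vector array, 2379 on the nm23-H1 array and 1132 on the nm23-H2 array. The probe set of NME2, shared with the NME1-NME2 read-through, gave 2272, 2323 and 4845, so each transcript was highest on the array of its own construct. Of 9 squamous markers, 6 had a probe set of their own, all 6 above the floor on each array, with summed signals of 25332 to 40159 units. Of 13 fibroblast, immune and endothelial markers with a probe set, between 2 and 5 were above the floor on an array. Their summed signals were 35.3 to 138 units per cell type. COL1A1, COL3A1, DCN, PDGFRB, PTPRC, VWF, CDH5 and KDR were below the floor on all 3. The fibroblast marker THY1 was above it on all 3, with 52.4, 59.2 and 50.6 units on the vector, nm23-H1 and nm23-H2 arrays. COL1A2 passed it on both nm23 arrays (39.0 and 31.7). The immune marker CD3E (31.7 and 58.0) and the endothelial marker PECAM1 (35.3 and 43.6) passed it on the vector and nm23-H1 arrays. CD14 passed it on the nm23-H1 array only (50.1).

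Of the 36 genes with a probe set, 34 were measured, 33 of them above the floor on all 3 arrays. Most differed little. For 30 of the 34, no pair of arrays differed by 2-fold. The exceptions were PFAS and DTYMK, higher on both nm23 arrays than on the vector array, ADSL, lower with nm23-H1, and UPP1, higher with nm23-H2. On the nm23-H1 array 2 of the 34 were above vector by 2-fold or more and 1 was below it by as much, where 2.16% and 1.71% of 8000 measured genes were. On the nm23-H2 array 3 were above vector by 2-fold or more and 0 below, where 3.54% and 3.62% of all measured genes were. Between the nm23 arrays, 0 were above and 2 below by 2-fold or more with nm23-H1, where 3.74% of all genes were in either direction. These counts rest on a handful of genes and on single arrays, and both comparisons with vector use the same vector array. The median difference of the 34 was -0.01 for nm23-H1 and 0.10 for nm23-H2 against vector, beside 0.00 and -0.06 over all measured genes. Between the nm23 arrays it was 0.00, beside 0.08.

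The higher and lower calls of all genes moved with the scaling. With the values as deposited, the share of higher among all 2-fold calls was 69.7% in place of 55.8% for nm23-H1 and 85.4% in place of 49.4% for nm23-H2 against vector, and 25.8% in place of 50% between the nm23 arrays. With a common median above the floor it was 38.7% for nm23-H2 against vector and 61.6% between the nm23 arrays. The 4 genes called here were the same under each of these scalings. The difference between the highest and the lowest signal of a gene was 1.34-fold at the median over the 34, with a range from 1.04-fold for HPRT1 to 3.74-fold for UPP1, beside a median of 1.42-fold over all measured genes. It was under 1.5-fold for 27 of the 34 (79.4%) and for 58.7% of all measured genes. The 34 were also brighter, with a median signal of 342 units against 74.2, and the part of brightness in that comparison was not tested.

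**Figure D1:**
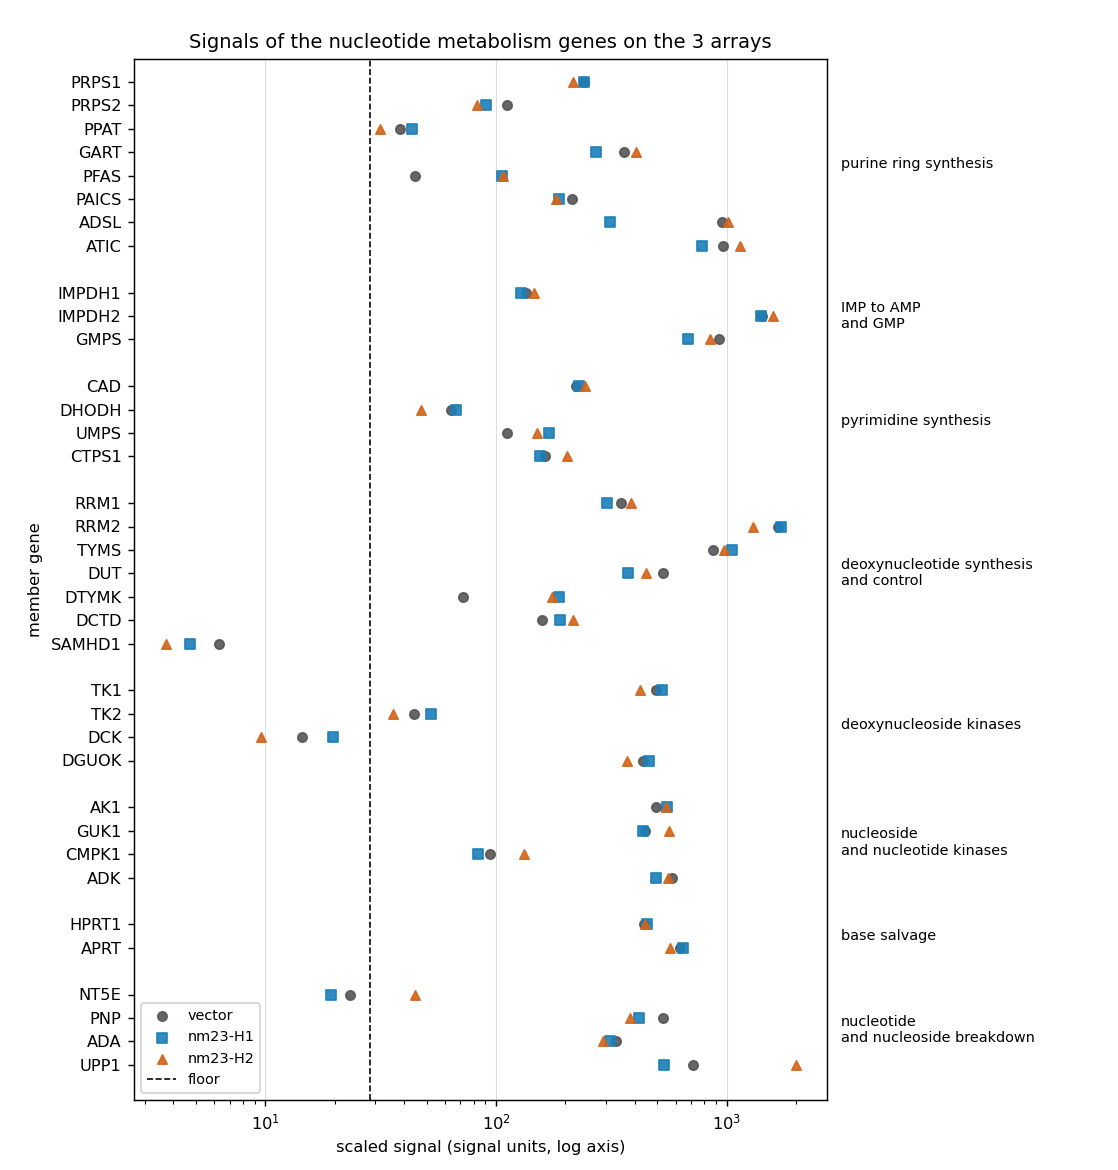
Scaled signal of each nucleotide metabolism gene (horizontal axis, signal units, log scale) on the vector, nm23-H1 and nm23-H2 arrays, 1 symbol per array, by role. The 3 symbols lie close together for most genes, and PFAS, DTYMK, ADSL and UPP1 each have 1 array apart from the other 2. The dashed line is the floor of 28.3 units, below which SAMHD1 and DCK lie on all 3 arrays.

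Regions around transcription starts are shown for PFAS, DTYMK and UPP1, whose levels set them apart, and for a pair that shares its start region. PFAS and DTYMK were higher on both nm23 arrays and UPP1 on the nm23-H2 array. PPAT and PAICS, which catalyse 2 separate parts of purine synthesis, are read in opposite directions from listed starts 137 bases apart. The gene span of PAICS, positions 56410507 to 56464578 of chromosome 4, overlaps that of PPAT, 56393362 to 56435615. The PAICS start used is therefore not at the edge of its span. The sequences are from RefSeq on GRCh38.p14, 5′ to 3′ on the gene's strand, from 250 bases before the start to 50 after it. For PPAT and PAICS the stretch of 236 bases common to both windows is given on the PAICS strand. Where RefSeq lists several starts, the one furthest upstream is shown for UPP1. Capitals mark 5 short motifs on either strand, none of which overlaps another here. The GC box was searched as GGGCGG and the promoter element named for its letters as CCAAT. The E-box, bound by MYC among other factors, was searched as CACGTG. For E2F, a regulator of S phase genes, the forms TTTGGCGC and TTTCCCGC were both taken. The AP-1 motif was searched as TGAGTCA. The windows are chr17:8249039-8249338 on the plus strand for PFAS, chr2:241686766-241687065 on the minus strand for DTYMK, chr7:48088454-48088753 on the plus strand for UPP1 and chr4:56435566-56435801 for the pair.
PFAS: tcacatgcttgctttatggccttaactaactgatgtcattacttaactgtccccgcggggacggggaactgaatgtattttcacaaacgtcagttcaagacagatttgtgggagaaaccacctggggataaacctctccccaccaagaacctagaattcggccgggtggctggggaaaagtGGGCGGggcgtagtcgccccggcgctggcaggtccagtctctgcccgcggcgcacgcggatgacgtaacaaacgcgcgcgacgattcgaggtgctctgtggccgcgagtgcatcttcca
DTYMK: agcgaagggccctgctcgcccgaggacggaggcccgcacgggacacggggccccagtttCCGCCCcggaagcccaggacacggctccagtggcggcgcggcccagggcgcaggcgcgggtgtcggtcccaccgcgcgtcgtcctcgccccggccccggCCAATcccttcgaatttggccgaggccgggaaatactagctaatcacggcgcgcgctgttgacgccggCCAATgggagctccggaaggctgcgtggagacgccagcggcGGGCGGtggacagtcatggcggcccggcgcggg
UPP1: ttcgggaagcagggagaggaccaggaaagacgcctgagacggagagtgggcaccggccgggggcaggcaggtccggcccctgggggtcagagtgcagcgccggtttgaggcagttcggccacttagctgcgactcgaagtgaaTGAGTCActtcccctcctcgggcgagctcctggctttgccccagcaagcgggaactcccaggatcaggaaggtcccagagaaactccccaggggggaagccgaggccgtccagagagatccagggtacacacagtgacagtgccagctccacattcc
PPAT and PAICS: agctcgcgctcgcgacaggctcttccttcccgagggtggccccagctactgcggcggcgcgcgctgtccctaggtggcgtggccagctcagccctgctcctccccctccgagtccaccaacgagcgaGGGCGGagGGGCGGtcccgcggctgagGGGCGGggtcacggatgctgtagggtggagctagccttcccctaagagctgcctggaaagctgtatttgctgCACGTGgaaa
The PFAS window holds 1 GC box and none of the other motifs, while that of DTYMK holds 2 GC boxes and 2 CCAAT motifs, so the pair with like levels shares only the GC box. The UPP1 window holds the AP-1 motif, which was added to the search after this window had been read. The shared PPAT and PAICS stretch holds 3 GC boxes and 1 E-box.

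Windows were matched for 36 of the 38 genes, all but ADSL and IMPDH2. The 36 had 54 windows, and all 27305 genes listed had 35116. A GC box lay in a window of 31 of these 36 (86.1%), against 48.3% of all genes listed. A CCAAT motif lay in 13 (36.1%), against 39.7%. By window the shares were 75.9% against 45.0% for the GC box and 31.5% against 34.6% for CCAAT. An E-box lay in windows of PPAT, PAICS, ATIC, DHODH and DCK, 13.9% of the 36 against 8.77% of all genes. PPAT and PAICS share 1 site among these, and by window the shares were 9.26% and 7.26%. An E2F form lay in those of PRPS2, GART, TYMS, DUT and DCK, again 13.9%, against 2.75%, and by window 9.26% against 2.27%. UPP1 was the only one of the 36 with the AP-1 motif, which 6.05% of all genes had, and by window the shares were 1.85% and 4.95%. These are matches of letters in a short window.

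The enzymes of purine ring synthesis held 2-fold differences in opposite directions. PFAS, which makes formylglycinamidine ribonucleotide in the middle of the pathway, gave 44.4 units on the vector array, 106 on the nm23-H1 array and 107 on the nm23-H2 array. Both nm23 arrays were therefore above the vector array and close to each other (0.988-fold). PFAS was 2.38-fold higher with nm23-H1 and 2.41-fold higher with nm23-H2, log2 differences of 1.25 and 1.27. Both rest on the same vector signal, which was not far above the floor, and with the floor at the 70th percentile they were 0.67 and 0.69, under 2-fold. PFAS had 1 probe set. Its gene lies at positions 8247608 to 8270486 of chromosome 17 and overlaps CTC1, whose signals were 25.2, 29.6 and 66.4 units on the vector, nm23-H1 and nm23-H2 arrays. The window shown for PFAS lies within this span, at a listed start.

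ADSL, adenylosuccinate lyase, acts at 2 points, once in building the ring and once between IMP and AMP. Its probe set gave 949.5 units on the vector array, 311 on the nm23-H1 array and 1014 on the nm23-H2 array. The nm23-H1 array was the low one, and the other two lay together. With nm23-H1, ADSL was 3.06-fold below vector (-1.61) and 3.26-fold below nm23-H2 (-1.71). Neither of the 2 ADSL probe sets was counted as specific by name, and by its name the further one may also bind related sequences. That further one gave 619, 395 and 588 units, again lowest on the nm23-H1 array, but only 1.57-fold below vector (-0.65). The gap between the 2 probe sets was 1.13 for nm23-H1 against nm23-H2. The mean of both gave -1.13 against vector.

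The remaining enzymes of this pathway stayed under 2-fold. PRPS1 and PRPS2 make phosphoribosyl pyrophosphate. PRPS1 gave 240.0, 240.4 and 216 units on the vector, nm23-H1 and nm23-H2 arrays, and PRPS2 gave 112, 90.6 and 82.5. PPAT, which commits the sugar phosphate to the pathway, was close to the floor with 38.3, 43.1 and 31.4 units. PAICS, whose start region PPAT shares, gave 214, 187 and 182 units, and its differences of -0.19 and -0.23 from vector lay within the probe set SD. PPAT differed from vector by 0.17 and -0.28, so on the nm23-H1 array the signs of the pair were opposite, each within that SD.

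GART, a protein with 3 activities of the pathway, gave 359 units with vector, 271 with nm23-H1 and 405 with nm23-H2. The probe sets of GART disagreed with each other. For nm23-H1 against vector the brightest gave -0.40, a further bright one -0.27 and a dimmer one 0.70. ATIC, which closes the ring, gave 959 units with vector, 785 with nm23-H1 and 1142 with nm23-H2. ADSL, GART and ATIC thus had their lowest signal on the nm23-H1 array, while PFAS had its lowest on the vector array. Of the 6974 measured genes with 3 different values after the floor, 27.8% were lowest on the nm23-H1 array and 26.8% on the vector array. Over the 8 enzymes the median difference was -0.24 with nm23-H1 and -0.03 with nm23-H2 against vector, beside 0.00 and -0.06 over all measured genes. Below 0 were 5 of 8 with nm23-H1 and 4 with nm23-H2, beside 3820 and 4360 of all 8000.

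At the branch from IMP to GMP the levels were close. IMPDH1 and IMPDH2 are the isoforms of IMP dehydrogenase, the first step towards GMP. IMPDH2 gave 1421 units with vector, 1411 with nm23-H1 and 1588 with nm23-H2, and IMPDH1 gave 135, 128 and 146. GMPS, which completes GMP, gave 922, 679 and 842 units and was 1.36-fold below vector with nm23-H1 (-0.44). Each of the 3 had its lowest signal on the nm23-H1 array, as did 27.8% of all measured genes with 3 different values. Of their differences from vector, that of GMPS with nm23-H1 was the only one larger than the probe set SD.

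**Figure D2:**
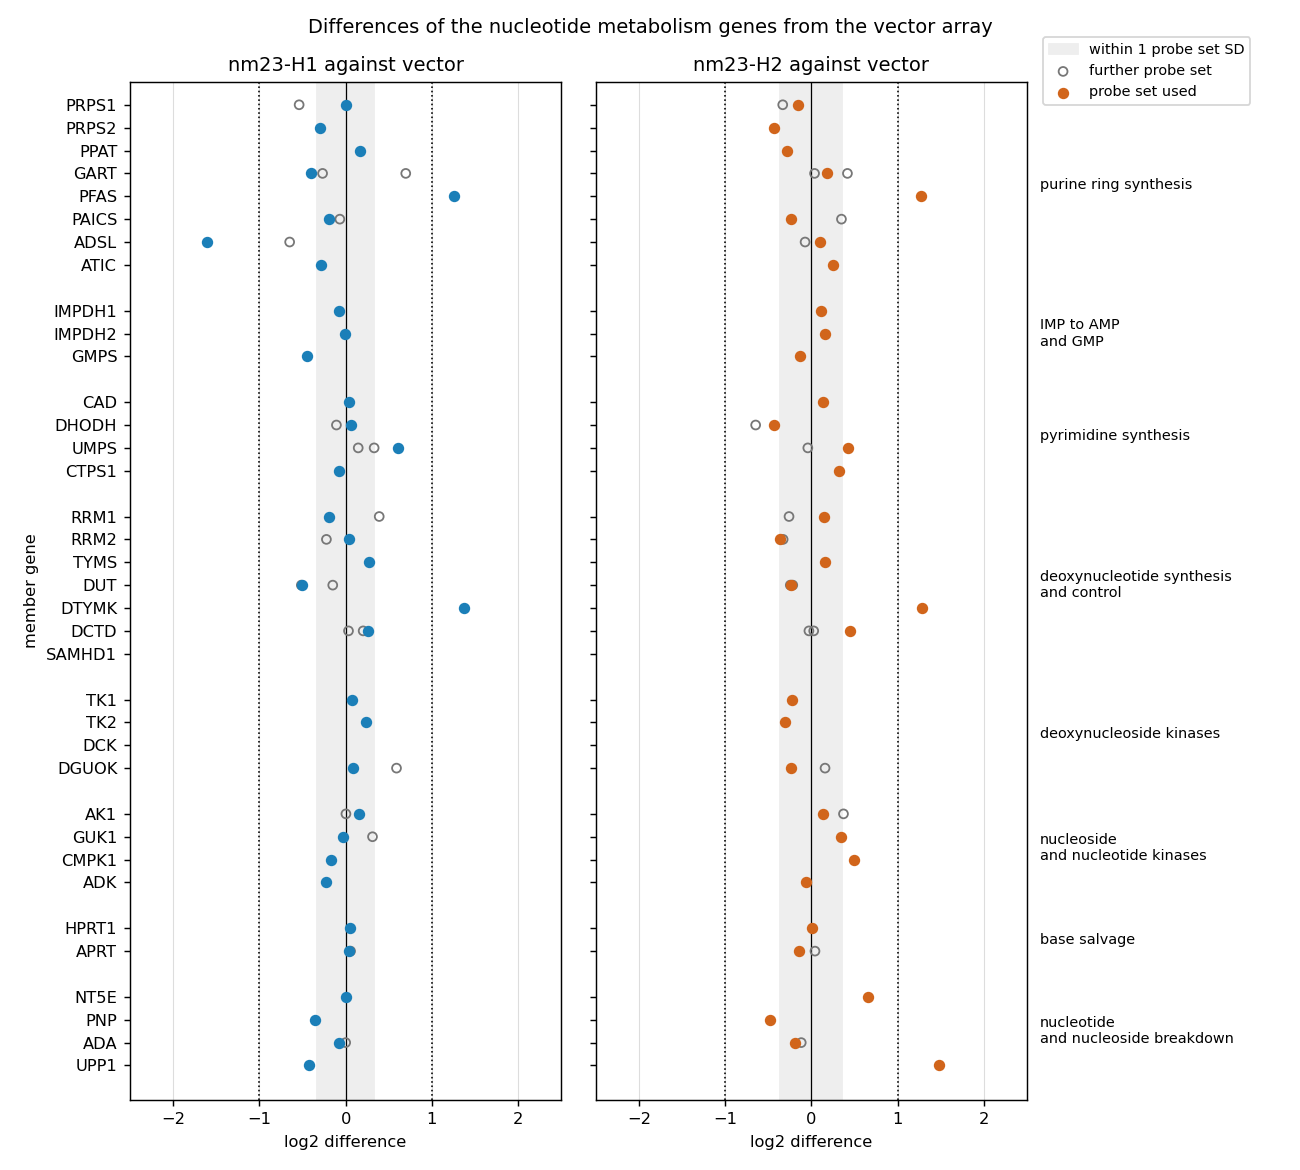
Log2 difference of each gene from the vector array, for nm23-H1 on the left and nm23-H2 on the right. Filled points are the probe set used, open points further probe sets that passed the floor on both, the grey band 1 probe set SD (0.33 and 0.36) and dotted lines 2-fold. PFAS and DTYMK lie beyond 2-fold on both sides, ADSL on the left and UPP1 on the right.

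The pyrimidine pathway showed no 2-fold difference in any comparison. CAD, the protein that carries the first 3 steps, gave 222, 228 and 244 units on the vector, nm23-H1 and nm23-H2 arrays, a range within the probe set SD. CTPS1, which makes CTP from UTP, gave 163, 155 and 204 units. DHODH, the mitochondrial step, gave 63.9, 66.9 and 47.2 units, and was lowest on the nm23-H2 array by its further probe set as well (44.4, 41.2 and 28.4). UMPS, which makes UMP, gave 112 units with vector, 170.4 with nm23-H1 and 151 with nm23-H2. That placed UMPS 1.52-fold above vector with nm23-H1 (0.61), the next highest above vector after DTYMK and PFAS. Its 2 further probe sets gave 0.33 and 0.15 for nm23-H1, the same direction, and -0.32 and -0.04 for nm23-H2, where the probe set used gave 0.43. The dimmer of them was below the floor with nm23-H2.

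Among the genes of deoxynucleotide synthesis, DTYMK stood apart. DTYMK, thymidylate kinase, makes dTDP, from which a nucleoside diphosphate kinase makes dTTP. It gave 72.1 units with vector, 187 with nm23-H1 and 176 with nm23-H2. The vector array was again the low one, and the nm23 arrays were alike (1.06-fold). DTYMK was 2.59-fold higher with nm23-H1 (1.37) and 2.44-fold higher with nm23-H2 (1.29) than with vector, by its single probe set.

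TYMS, thymidylate synthase, gave 872, 1050.0 and 974 units on the vector, nm23-H1 and nm23-H2 arrays. It was lowest on the vector array too, but its differences of 0.27 and 0.16 lay within the probe set SD. DUT, which turns dUTP into dUMP, gave 529, 373 and 448 units. DUT was 1.42-fold below vector with nm23-H1 (-0.51), and its further probe sets gave -0.51 and -0.15. DCTD, which supplies dUMP from dCMP, gave 158, 189 and 215 units, while further probe sets differed from vector by no more than 0.20.

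RRM1 and RRM2 are the subunits of ribonucleotide reductase. RRM1 gave 347, 303 and 383 units on the vector, nm23-H1 and nm23-H2 arrays, and its further probe set had the opposite order (153, 200.4 and 128). RRM2, the subunit made in S phase, gave 1671, 1719.7 and 1301 units, lowest on the nm23-H2 array, where the further probe set was lowest as well (326, 279 and 259.9). The RRM2 difference of -0.36 for nm23-H2 against vector was about the size of the probe set SD. SAMHD1, which breaks deoxynucleotides down, was below the floor on all 3 arrays with 3.70 to 6.31 units.

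No kinase of salvage reached 2-fold. TK1, the thymidine kinase of dividing cells, gave 494, 522 and 422 units with vector, nm23-H1 and nm23-H2. DGUOK, which phosphorylates deoxyguanosine in mitochondria, gave 433, 459 and 368. TK2, the mitochondrial thymidine kinase, gave 44.3, 52.1 and 35.7 and was near the floor. Each of these 3 was highest on the nm23-H1 array and lowest on the nm23-H2 array, with differences from vector of 0.08 to 0.23 and of -0.31 to -0.23. All 6 values lay within the probe set SD, and the further probe set of DGUOK gave 0.59 and 0.16. Of all measured genes with 3 different values, 36.4% were highest on the nm23-H1 array and 45.4% lowest on the nm23-H2 array. DCK, deoxycytidine kinase, was below the floor on all 3 arrays with 9.60 to 19.6 units.

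AK1, adenylate kinase, gave 495 units with vector, 552 with nm23-H1 and 545 with nm23-H2. GUK1, guanylate kinase, gave 441, 432 and 559.8 units. CMPK1, which phosphorylates UMP and CMP, gave 94.0, 83.3 and 132 units. CMPK1 and GUK1 were highest on the nm23-H2 array, with differences of 0.50 and 0.34 from vector, but a dimmer probe set of GUK1, below the floor with nm23-H2, gave -0.33. ADK, adenosine kinase, gave 578, 495 and 555 units. The base salvage enzymes were close on all 3 arrays. HPRT1, which recovers hypoxanthine and guanine, gave 437, 452 and 440.3 units, and APRT, which recovers adenine, gave 629, 644 and 569.5.

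Among the enzymes of breakdown, UPP1 differed most of all 34. UPP1, uridine phosphorylase, splits uridine into uracil and ribose phosphate. It gave 715 units with vector, 533 with nm23-H1 and 1992 with nm23-H2. The nm23-H2 array was far above both others, and the nm23-H1 array was the lowest. UPP1 was 2.79-fold above vector with nm23-H2 (1.48) and 1.34-fold below it with nm23-H1 (-0.42). The nm23-H1 signal was 3.74-fold below that of nm23-H2 (-1.90). It had 1 probe set.

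NT5E, the cell surface 5′-nucleotidase that makes adenosine from AMP, was above the floor on the nm23-H2 array only, with 23.4, 19.2 and 44.6 units. Its level with nm23-H2 was at least 1.57-fold that with vector. PNP, purine nucleoside phosphorylase, gave 530.0, 415 and 381 units and was lower on both nm23 arrays (-0.35 and -0.48). ADA, adenosine deaminase, gave 331, 313 and 290.4 units, and both of its probe sets were lowest on the nm23-H2 array. UPP1 was thus highest, and PNP and ADA lowest, on the nm23-H2 array. NT5E was counted as measured through its nm23-H2 signal alone, so no other array could have been its highest. For that reason NT5E is not set beside UPP1 here.

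Agreement between probe sets could be examined where a gene had a further one above the floor on both arrays. For nm23-H1 against vector this gave 19 pairs of probe sets in 15 genes, of which 12 had the same sign, with a median gap of 0.26. For nm23-H2 against vector 10 of 17 pairs had the same sign, with a median gap of 0.21, and between the nm23 arrays 9 of 18, with a median gap of 0.33. The sign of a small difference therefore often varied between probe sets of a gene. Of the 4 genes at least 2-fold different, ADSL was the only one with a further probe set.

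The genes beside each member on its chromosome were examined as well. The 50 measured genes around ADSL on chromosome 22, 25 on either side, had a median difference of -0.24 for nm23-H1 against vector. Of these 50, 33 were below 0, 4 of them by 2-fold or more, and 2 were at least 2-fold higher. Over all measured genes, 3820 of 8000 were below 0, and 1.71% were at least 2-fold lower and 2.16% higher. ADSL itself lay at -1.61. With nm23-H2 the same neighbours had a median of -0.14, with 32 of 50 below 0, beside 4360 of 8000, and ADSL lay at 0.10. The 10 measured genes nearest to ADSL, 5 on either side, had a median of -0.01 with either construct, with 5 of 10 above 0. Its gene spans positions 40346500 to 40387527. Around PFAS the median was 0.07 for nm23-H1 and 0.00 for nm23-H2. At least 2-fold higher were 0 and 1 of 50, beside 2.16% and 3.54% of all measured genes. Around UPP1, at positions 48088704 to 48108736 of chromosome 7, it was 0.03 and 0.00. PNP lay on chromosome 14 among genes with the lowest medians beside any member, -0.27 for nm23-H1 and -0.35 for nm23-H2, close to its own differences. What part the neighbours' shift has in the level of PNP was not tested.

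DTYMK was the last measured gene on the long arm of chromosome 2, at positions 241675747 to 241686815. The 25 measured genes before it had medians of 0.15 for nm23-H1 and 0.00 for nm23-H2 against vector, but the nearest 5 were all above 0 on both arrays. These were PPP1R7, HDLBP, SEPTIN2, STK25 and THAP4, and this shorter stretch was looked at after its values had been seen. Their differences ran from 0.35 to 1.26 for nm23-H1 and from 0.44 to 2.20 for nm23-H2, with medians of 0.70 and 0.66. HDLBP, with 90.2, 215 and 414 units on the vector, nm23-H1 and nm23-H2 arrays, was the one past 2-fold on both. DTYMK thus lay at the end of a run of genes that were all higher on both nm23 arrays. No such run lay around PFAS, where 6 of the nearest 10 genes were above 0 on each array. Of 8000 measured genes, 3962 were above 0 with nm23-H1 and 3200 with nm23-H2. Whether the run has a part in the DTYMK difference was not tested.

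**Figure D3:**
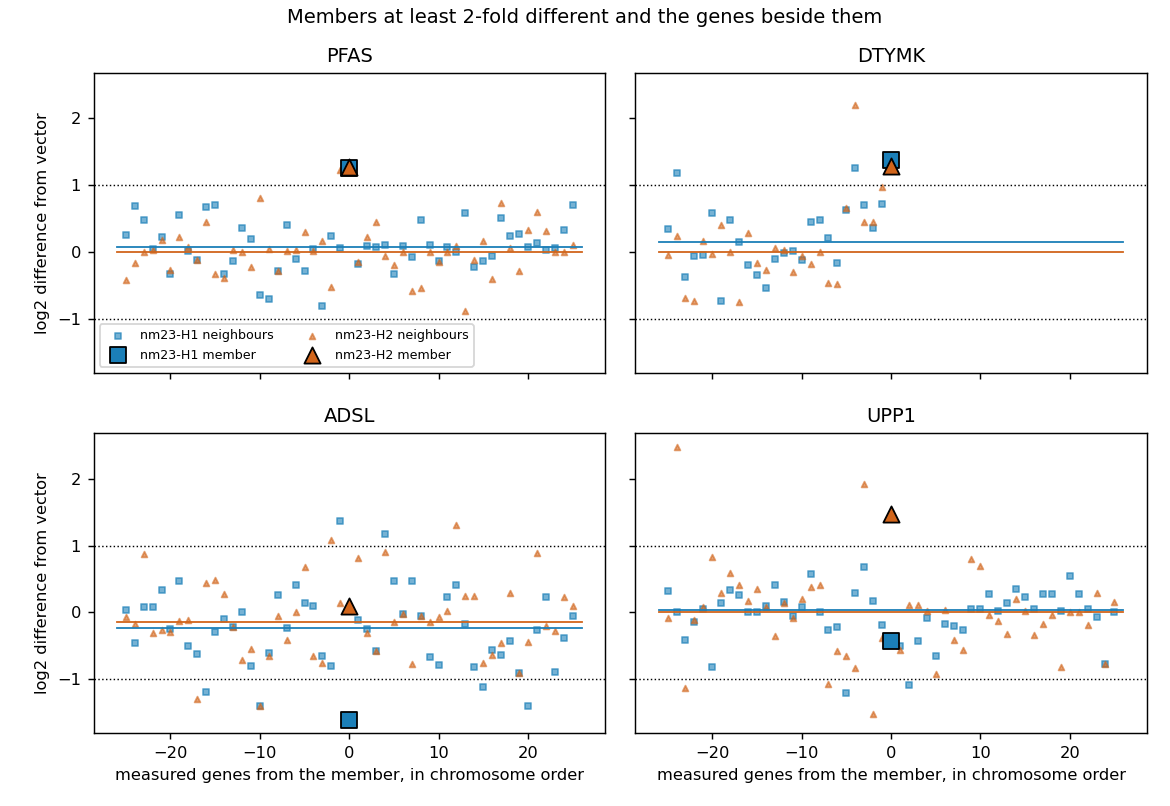
Log2 difference from vector of PFAS, DTYMK, ADSL and UPP1 (large symbols) and of up to 25 measured genes on either side (small symbols), by order along the chromosome, for nm23-H1 (squares) and nm23-H2 (triangles). Horizontal lines are the medians of the neighbours and dotted lines 2-fold. The genes just before DTYMK lie above 0 for both constructs, and the ADSL neighbours have a median of -0.24 for nm23-H1.

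Further genes of nucleotide metabolism, folate metabolism and S phase were taken from lists drawn up by function. Of 43 other nucleotide genes 26 were measured. With nm23-H1, 2 of the 26 were at least 2-fold higher than vector and 0 lower, beside 2.16% and 1.71% of all measured genes. These were ENTPD6, a nucleoside diphosphatase, with 37.4 units on the vector and 175 on the nm23-H1 array, and GMPR, which turns GMP back into IMP, at least 2.10-fold higher. With nm23-H2, 2 were at least 2-fold higher and 1 lower, beside 3.54% and 3.62%. They were ENTPD6 again (134 units), TYMP, thymidine phosphorylase (2.27-fold, 49.9 against 113 units), and the nucleoside transporter SLC29A3 (2.58-fold lower). Between the nm23 arrays, SLC29A3 and MTAP, which salvages methylthioadenosine, were 2.97-fold and 2.04-fold higher with nm23-H1, and TYMP and CDA, cytidine deaminase, 2.21-fold and 2.10-fold lower. The median of the 26 was 0.09, -0.01 and 0.40 in the 3 comparisons, beside 0.00, -0.06 and 0.08 over all measured genes. ENTPD6 lies on chromosome 20, where 16 of its 50 neighbours were at least 2-fold higher with nm23-H1 and 8 with nm23-H2 (medians 0.34 and 0.00). MTAP lies on chromosome 9, where the neighbours had a median of 0.44 with nm23-H1 and 0.35 with nm23-H2, against its own 0.31 and -0.72. The neighbours' part in these differences was not tested.

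Folate enzymes donate the single carbon units of the purine ring and of thymidylate. Of 18 listed, 12 were measured, and none reached 2-fold against vector. The medians were -0.05 with nm23-H1 and 0.09 with nm23-H2. MTHFD2, a mitochondrial folate dehydrogenase, gave 284, 203 and 461 units on the vector, nm23-H1 and nm23-H2 arrays. It was 2.26-fold lower with nm23-H1 than with nm23-H2, the only 1 of the 12 past 2-fold there. Of all measured genes 3.74% were as much lower in that comparison.

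The S phase list covers the replication machinery that uses deoxynucleotides, and 28 of its 30 genes were measured. Its median was 0.01 with nm23-H1 and -0.22 with nm23-H2 against vector, and 22 of 28 were below 0 with nm23-H2. Over all measured genes the medians were 0.00 and -0.06, and 4360 of 8000 were below 0 with nm23-H2. Of the 6 measured members of deoxynucleotide synthesis, RRM2 (-0.36) and DUT (-0.24) were below vector with nm23-H2, and DTYMK (1.29), DCTD (0.44), TYMS (0.16) and RRM1 (0.14) were above it. With nm23-H1, PCNA, CDC45 and GINS1 were higher by 1.58, 1.35 and 1.35 on the log2 scale and MCM5 was 2.01-fold lower. These were 3 of the 28 at least 2-fold higher and 1 lower, beside 2.16% and 1.71% of all measured genes. With nm23-H2, CDC45 was the only one past 2-fold (2.16-fold higher), where 3.54% of all measured genes were at least 2-fold higher. CDC45 gave 45.9, 117 and 99.2 units on the vector, nm23-H1 and nm23-H2 arrays. PCNA lies on chromosome 20, where its 50 neighbours had a median of 1.09 with nm23-H1, and their part in its difference was not tested. The neighbours of CDC45, GINS1 and MCM5 were not examined.

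**Figure D4:**
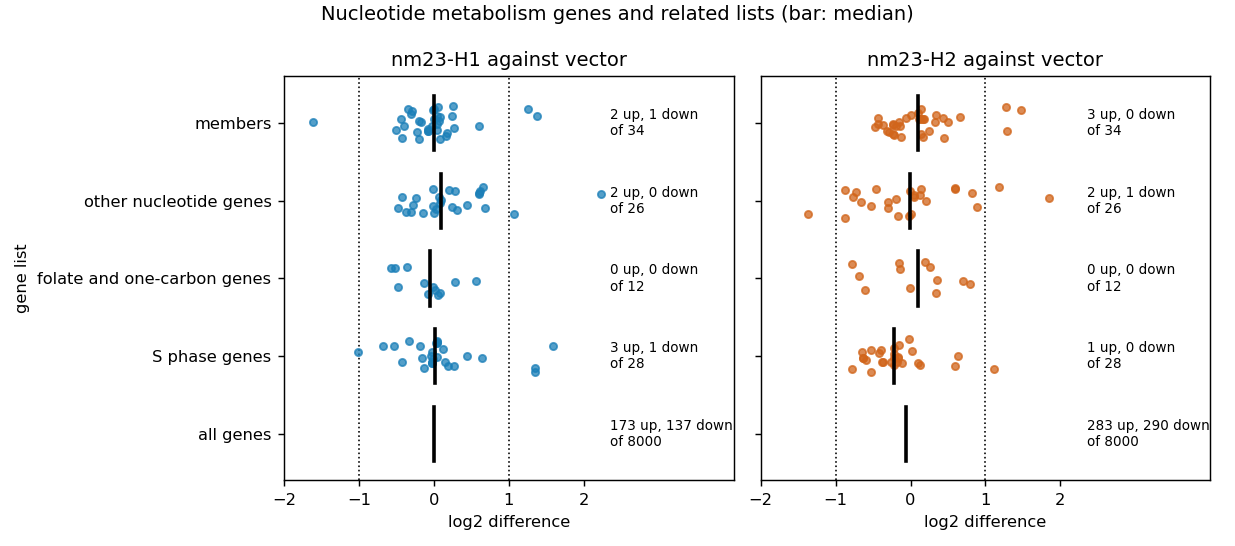
Log2 differences from vector of the 34 measured nucleotide metabolism genes (members) and of 3 related lists, 1 point per gene, for nm23-H1 on the left and nm23-H2 on the right. Bars are medians, dotted lines are 2-fold, and the numbers give the genes at least 2-fold higher (up) and lower (down). The medians of the members are -0.01 and 0.10, beside 0.00 and -0.06 for all 8000 genes.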

How the data were processed

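Each of 3 RNA samples was hybridised to 1 Affymetrix array. The deposited values are intensity signals on a linear scale, made by the authors with MAS5 per the submitters' processing notes. Its version and scaling target, and detection calls, are not given in the sources used here. Each array was multiplied to bring its mean between the 2nd and 98th percentiles to a common value, values below the pooled median were set to that floor, and log2 was taken. Of the 19071 probe sets annotated to a single symbol, each of 11963 genes was read from the brightest, passing over names ending in _x_at where another existed. The 1043 with several symbols and 2169 not named in the annotation were left out, apart from NME2. Medians over a gene's neighbours used GRCh38.p14 positions. The number of arrays limits the precision.

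The members and lists were chosen with earlier results of these data known. Signals were given for every measured member, and other list genes were named when at least 2-fold different. Recomputed settings were no rescaling, a common median, quantile normalization, a floor at the 25th or at the 70th percentile, an offset of 16 instead of a floor, averaging each gene's probe sets, keeping only probe sets specific by name, a difference of 1.5, and means instead of medians. Steps were tested on simulated data. Python 3.11.15, numpy 2.4.6, pandas 2.3.3 and matplotlib 3.10.9 were used.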

Additional observations from a re-analysis of the deposited data

Results flagged for a closer look

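UPP1 was the only measured member that differed from vector in opposite directions on the nm23 arrays by more than the probe set SD on both, -0.42 with nm23-H1 and 1.48 with nm23-H2, a distance of -1.90 between them. A further 17 members had opposite signs with at least 1 difference within that SD. No such count over all measured genes is given here, so whether these numbers are unusual was not tested. The difference between the constructs was not tested, since each is 1 array.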

How the results depend on the processing

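With 1 array per construct, no replicate could be left out and no paired analysis was possible because no group has a second array. The 8 differences of at least 2-fold kept their sign in all 62 recomputed values, and 60 stayed at least 2-fold. The 2 others were those of PFAS under a floor at the 70th percentile. Not all 62 could change. PFAS, DTYMK and UPP1 had 1 probe set each, so averaging or selecting probe sets left their values as they were. A changed floor also left a difference as it was where the signals lay above both floors. ADSL had no value with probe sets specific by name. Counts of members at least 2-fold different were 3, 3 and 2 for nm23-H1 against vector, nm23-H2 against vector and nm23-H1 against nm23-H2. Past a log2 difference of 1.5 they were 1, 0 and 2. Between the nm23 arrays the count was 4 under a floor at the 25th percentile, where DCK and NT5E joined, and 1 with probe sets specific by name, which left out ADSL. Of 27 recomputed medians of the members, 7 moved by more than the probe set SD over the square root of 34. With the values as deposited they were 0.0906, 0.43 and -0.22, when the median of all genes was 0.08, 0.17 and -0.07. For nm23-H2 against vector the members' median was 0.0192 with a common median above the floor, beside -0.13 over all genes. When each gene's probe sets were averaged it was 0.0172, beside -0.04. Between the nm23 arrays the members' median was 0.10 with that common median, beside 0.15 over all genes. The mean over members there was -0.14, beside 0.07 over all genes. Counts over all genes, 310, 573 and 598, were 1205, 1600 and 1721 under a floor at the 25th percentile, 131, 304 and 305 at the 70th, 185, 331 and 347 with probe sets specific by name, and 62, 131 and 163 past 1.5. The causes were not tested. Members near the floor, such as PPAT, TK2 and DHODH, have less measurable range below their signals.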
